A study of Homo sapiens with 4 samples.

Results

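Oxidative phosphorylation was followed through the genes for subunits of respiratory complexes I to IV and of ATP synthase (complex V). A gene belonged to the module if it had a protein-coding transcript and its symbol matched a subunit name: MT-ND, MT-CO, MT-ATP and MT-CYB genes, NDUFA, NDUFB, NDUFC, NDUFS and NDUFV genes with a number, SDHA to SDHD, the UQCR genes, the COX4 to COX8 genes with an A, B or C, and the ATP5 genes. These names took 101 of the 58174 genes in the files, under 100 symbols, since SDHD had a second gene identifier. Of the 101, 13 were encoded in mitochondrial DNA and 88 in the nucleus. The pattern missed a few true subunits (COX4I1 and CYC1 among them) and took in readthrough genes and pseudogene-like loci, which are described last. Genes were assigned to complexes by name alone. NDUFA4, a partner of complex IV, and its paralog NDUFA4L2 were thus counted in complex I. ATP5S, ATP5SL (DMAC2 in current nomenclature) and the readthrough ATP5J2-PTCD1 were counted in complex V by name only.

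Complexes I, III and IV pass electrons from NADH and succinate to oxygen and pump protons out of the mitochondrial matrix, complex II feeds in electrons without pumping, and complex V uses the returning protons to make ATP. Mitochondrial DNA is transcribed from both strands into long precursors that are cut into separate RNAs, and it supplies membrane-arm core subunits of complex I, the cytochrome b of complex III, core subunits of complex IV and part of the proton channel of complex V. All of complex II and the many accessory subunits come from nuclear genes, so each of the other complexes is assembled from 2 genomes.

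The RNA-seq libraries came from Daoy cells, a cell line established from a human medulloblastoma, with 2 libraries each of the genotypes wild type and EED-knockout. The EED protein belongs to Polycomb repressive complex 2, which places the silencing mark H3K27me3, and the series set the transcriptome of cells with mutant EED against that of wild type cells. No other allele or agent is named, and the labels do not say how the knockout was made, whether it was 1 clone, or whether the replicates were grown separately. The spread that p-values measure is therefore that of these 4 libraries and may be technical.

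The libraries held 17836112 to 19106382 estimated counts. Values are given as CPM, counts scaled to library size and by TMM (a normalization for library composition), or as TPM, transcript abundance scaled to a fixed library total, which is also divided by length. EED itself was at 626 and 500 counts in wild type, against 340 and 490 in EED-knockout, lower in both, with an adjusted p of 0.878 in edgeR. Of 12 neural progenitor and medulloblastoma markers, 11 had at least 10 counts in every library, with summed TPM of 3218 to 3628. Most of that sum was VIM alone, at 3315 and 3091 TPM in wild type and 3432 and 3371 TPM in EED-knockout. The highest value of any other was 50.3 TPM, for ZIC1 in EED-knockout 1, NES was at 0.816 to 1.83 TPM and ATOH1 had 0 counts. Skeletal muscle, blood, endothelial and epithelial markers summed to at most 8.26, 1.37, 4.02 and 2.12 TPM.

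Of the 101 genes, 93 had enough counts to be tested: all 13 mitochondrial and 80 of the 88 nuclear ones. Most genes of the module had lower mean levels in the EED-knockout libraries, by more in the nuclear than in the mitochondrially encoded genes; the difference between the genomes was not tested. On the log2 scale, with negative values meaning lower in EED-knockout, the median fold change was -0.19 over the nuclear genes, -0.01 over the mitochondrial genes and 0.01 over all 18349 tested genes. Below 0 were 59 of the 80 nuclear genes and 9 of the 13 mitochondrial genes, beside 49.1% of all tested genes. The EED-knockout libraries were both below both wild type libraries in 39 nuclear and 2 mitochondrial genes (18% of all tested genes) and above them in 5 nuclear and 2 mitochondrial genes (17.8% of all tested genes).

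No gene of the module was called by edgeR's quasi-likelihood test at a Benjamini-Hochberg adjusted p of 0.05, and none was called among all tested genes (0%). The smallest adjusted p in the module was 0.734, for ATP5J. At an unadjusted p under 0.05, 14 genes of the module were lower, all nuclear, against 3.05% of all tested genes, and 0 were higher, against 2.85%. That count rested on single libraries: it was 1 without wild type 1, 8 without wild type 2, 12 without EED-knockout 1 and 23 without EED-knockout 2, and 8 with the replicate number as a block. DESeq2 called 1 gene of the module, ATP5J (adjusted p = 0.0354), with 0.371% of all tested genes called, and limma called 0.

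**Figure D1:**
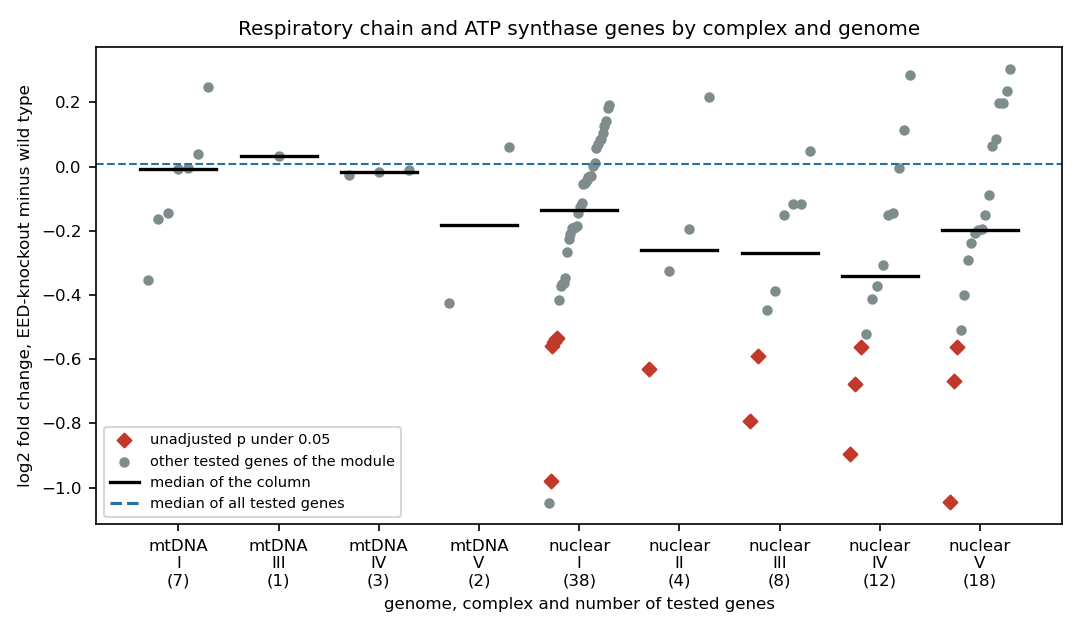
Log2 fold change of EED-knockout against wild type (vertical axis) for each tested gene, grouped by genome and complex; black bars are medians and the dashed line is the median of all tested genes at 0.01. The 14 genes at an unadjusted p under 0.05 (red diamonds) are all nuclear and all lie below 0, and the 3 mitochondrial genes of complex IV lie close to 0.

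Summed over its genes, the nuclear part of the module took 0.725% and 0.715% of counts in wild type, against 0.634% and 0.666% in EED-knockout. Both EED-knockout libraries lay below both wild type libraries, with means of 0.720% ± 0.00746 and 0.650% ± 0.0221 (SD, n = 2) and an exact two-sided permutation p of 0.33, the smallest that 2 against 2 libraries can give. The 13 mitochondrial genes took 2.63% and 2.40% of counts in wild type and 2.48% and 2.76% in EED-knockout. The groups overlapped, with an exact permutation p of 0.667. Per length, the mitochondrial genes held 6.86% to 7.99% of all TPM and the nuclear genes 1.48% to 1.74%. The number of mitochondria per cell and the amount of RNA per mitochondrion cannot be told apart in such libraries.

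Among the mitochondrial genes, which sit on 1 circular genome and share their precursors, TPM spanned more than an order of magnitude. MT-CO2, a core subunit of the terminal oxidase, was highest, at 18211 and 15810 TPM in wild type and 17261 and 20286 TPM in EED-knockout. MT-ND5, the largest proton-pumping subunit of complex I, was lowest, at 877 and 1028 TPM in wild type and 1013 and 1009 TPM in EED-knockout. For both genes the groups overlapped, and the log2 fold changes from counts were -0.01 (SE 0.23) and -0.01 (SE 0.19). MT-CO1 and MT-CO3, the other core subunits of complex IV, were at -0.02 (SE 0.22) and -0.03 (SE 0.22), and MT-CYB, the complex III subunit, was at 0.03 (SE 0.22).

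**Figure D2:**
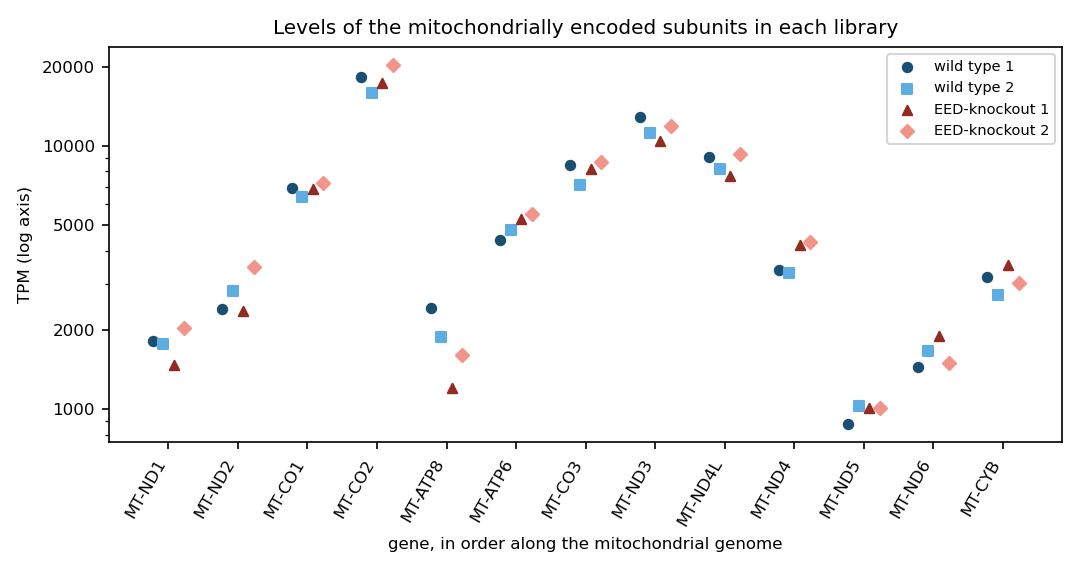
TPM (log axis) of the 13 mitochondrially encoded subunits in each library, ordered along the mitochondrial genome. MT-CO2 is highest and MT-ND5 lowest, and the libraries of both genotypes interleave for most genes; MT-ATP8 is lower and MT-ND4 and MT-ATP6 are higher in both EED-knockout libraries.

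MT-ND4, a membrane-arm subunit of complex I, was at 2867 and 2536 CPM in wild type and 3167 and 3244 CPM in EED-knockout. Each EED-knockout value was above each wild type value, by 0.25 on the log2 scale (SE 0.20, edgeR adjusted p = 0.909). MT-ND3, another subunit of that arm, was at 976 and 819 CPM in wild type and 663 and 741 CPM in EED-knockout, lower in both, with a log2 fold change of -0.35 (SE 0.20, edgeR adjusted p = 0.881). In TPM the MT-ND3 groups overlapped, with 12860 and 11155 in wild type and 10483 and 11926 in EED-knockout. MT-ND1, MT-ND2 and MT-ND4L, also in the membrane arm, were at -0.15 (SE 0.23), 0.04 (SE 0.24) and -0.16 (SE 0.20), with overlapping groups. MT-ND6, the only protein gene on the light strand, was at 307 and 309 CPM in wild type and 344 and 270 CPM in EED-knockout, and it made up 1.01% to 1.39% of the mitochondrial gene counts with overlapping groups.

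MT-ATP8 and MT-ATP6, both subunits of the ATP synthase membrane part, are read from 1 RNA with overlapping reading frames. MT-ATP8 spans bases 8366 to 8572 and MT-ATP6 bases 8527 to 9207 of the mitochondrial chromosome (GRCh38, GENCODE 29), so the last 46 of the 207 bases of MT-ATP8 are also the first of MT-ATP6. The end of the first and the start of the second are shown because a fragment from the shared bases, in capitals, fits both genes:
MT-ATP8 end: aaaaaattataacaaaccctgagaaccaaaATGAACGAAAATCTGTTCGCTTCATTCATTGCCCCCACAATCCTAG
MT-ATP6 start: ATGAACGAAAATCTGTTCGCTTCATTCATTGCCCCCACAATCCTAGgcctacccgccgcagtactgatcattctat

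MT-ATP8 had 1314 and 1085 counts in wild type, against 859 and 999 in EED-knockout, lower in both, at a log2 fold change of -0.42 (SE 0.21, edgeR adjusted p = 0.860). MT-ATP6 had 25150 and 24892 counts in wild type, against 26729 and 27514 in EED-knockout, with a log2 fold change of 0.06 (SE 0.19, edgeR adjusted p = 0.985). The ratio of MT-ATP8 to MT-ATP6 in TPM was thus 0.549 and 0.395 in wild type and 0.229 and 0.291 in EED-knockout. kallisto gave MT-ATP8 effective lengths of only 37.6 and 43.8 bases in wild type and 51.7 and 45.8 bases in EED-knockout. Its TPM rests on these small divisors and on how the model split the shared bases, and their part in the ratio was not tested. MT-ND4L and MT-ND4 also overlap, by 7 bases. The ratio of MT-ND4L to MT-ND4 in TPM was 2.70 and 2.50 in wild type and 1.83 and 2.15 in EED-knockout, lower in both as well.

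The 2 mitochondrial ribosomal RNAs, which code for no subunit, were lower in EED-knockout. MT-RNR1, the small-subunit RNA, had 13123 and 13836 counts in wild type, against 8082 and 8363 in EED-knockout, with a log2 fold change of -0.77 (SE 0.19, edgeR adjusted p = 0.799, DESeq2 adjusted p = 0.0228). MT-RNR2, the large-subunit RNA, had 42014 and 42681 counts in wild type, against 29451 and 29559 in EED-knockout. Its log2 fold change was -0.58 (SE 0.19, edgeR adjusted p = 0.800, DESeq2 adjusted p = 0.219). In neither did the groups overlap, and the difference between ribosomal and messenger RNA was not tested. The sources used here do not give how ribosomal RNA was removed during library preparation, and its part in these values was not tested.

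Within complex I as grouped by name, 27 of 38 tested nuclear genes were below 0, with a median of -0.14, and 5 were lower at an unadjusted p under 0.05. NDUFS4, an accessory subunit needed for a stable NADH-oxidizing arm, was at 47.2 and 38.4 CPM in wild type and 17.4 and 26.0 CPM in EED-knockout. Both EED-knockout libraries lay well below wild type, with a log2 fold change of -0.98 (SE 0.26, edgeR adjusted p = 0.799). NDUFB9, NDUFS6, NDUFA2 and NDUFV3, also accessory subunits, had log2 fold changes of -0.53, -0.54, -0.55 and -0.56, with no overlap between the groups. NDUFS1 and NDUFV1, core subunits that carry iron-sulfur clusters or the flavin, were at 0.07 (SE 0.21) and 0.11 (SE 0.21), with overlapping groups.

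NDUFS5 was the most abundant nuclear subunit of complex I, at 617 and 583 TPM in wild type and 553 and 497 TPM in EED-knockout, with a log2 fold change from counts of -0.37. The highest fold changes among the nuclear genes of this complex were those of NDUFB8, at 0.19 (SE 0.20), and NDUFS8, at 0.18 (SE 0.20), and both had overlapping groups. NDUFA4L2, a paralog of NDUFA4 known to be induced in low oxygen, had 13 and 15 counts in wild type, against 11 and 3 in EED-knockout, so its log2 fold change of -1.05 had an SE of 0.78 and rested on few counts. NDUFA4, an abundant partner of complex IV, was at 90.2 and 81.7 CPM in wild type and 87.8 and 80.6 CPM in EED-knockout.

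Succinate dehydrogenase, complex II, showed opposite directions among its 4 subunits. SDHA, the flavoprotein, whose copies elsewhere in the genome make its counts less certain, was at 125 and 125 CPM in wild type and 152 and 138 CPM in EED-knockout, higher in both, with a log2 fold change of 0.22 (SE 0.18, edgeR adjusted p = 0.910). SDHC, one of its membrane anchors, was at 129 and 104 CPM in wild type and 60.5 and 89.8 CPM in EED-knockout, lower in both, at -0.63 (SE 0.25, edgeR adjusted p = 0.823). SDHD, the other anchor, and SDHB, the iron-sulfur subunit, were at -0.32 (SE 0.20) and -0.20 (SE 0.18), each without overlap between the groups.

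In complex III, 7 of 8 tested nuclear genes were below 0, with a median of -0.27. UQCRQ, a small subunit close to cytochrome b, was at 161 and 126 CPM in wild type and 76.7 and 89.2 CPM in EED-knockout. Its groups did not overlap, with a log2 fold change of -0.79 (SE 0.21, edgeR adjusted p = 0.799). UQCRH, the acidic hinge protein next to cytochrome c1, was at 246 and 202 CPM in wild type and 140 and 159 CPM in EED-knockout, at -0.59 (SE 0.20). UQCRB, a small subunit on 8q, was at -0.45 (SE 0.19), and UQCRC2, a core structural protein, at -0.12 (SE 0.18), each with both EED-knockout libraries below both wild type libraries. UQCRFS1, the Rieske iron-sulfur protein, and UQCRC1, the partner of UQCRC2, were at -0.12 (SE 0.23) and 0.05 (SE 0.18), with overlapping groups.

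Complex IV had the lowest nuclear median, -0.34, with 10 of 12 tested genes below 0 and 3 lower at an unadjusted p under 0.05. COX7C, a small membrane subunit, was at 206 and 159 CPM in wild type and 68.9 and 128 CPM in EED-knockout. EED-knockout 1 stood far below the rest, and the log2 fold change was -0.90 (SE 0.31, edgeR adjusted p = 0.808). COX6B1, which faces the intermembrane space, was at 112 and 99.3 CPM in wild type and 74.8 and 68.1 CPM in EED-knockout, at -0.56 (SE 0.19). COX8A, the general isoform of the smallest subunit, was at 60.7 and 60.9 CPM in wild type and 58.7 and 62.3 CPM in EED-knockout, with a log2 fold change of -0.01 (SE 0.18). The other abundant subunits COX5B and COX6A1 were at -0.31 (SE 0.23) and -0.14 (SE 0.18), and COX7A2L, a COX7A paralog that joins complexes III and IV, at -0.15 (SE 0.20); the groups overlapped for COX5B and COX7A2L and not for COX6A1.

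COX6C, another membrane subunit, was at 83.5 and 69.3 CPM in wild type and 53.9 and 41.7 CPM in EED-knockout, at -0.68 (SE 0.22). Only 23.8% of its counts lay on transcripts annotated as protein-coding, and on those alone its log2 fold change was 0.03. Its most abundant transcript, annotated as a target of nonsense-mediated decay, had 1098 and 1094 counts in wild type, against 505 and 442 in EED-knockout. The lower COX6C level was thus carried by that transcript, as the model assigned the counts. COX6C was the 1 gene of the 14 that turned to 0 or above under any alternative run.

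The nuclear genes with ATP5 names, grouped as ATP synthase, had a median of -0.20, with 12 of 18 tested genes below 0. Among the 18 were ATP5S, ATP5SL and ATP5J2-PTCD1. ATP5J (ATP5PF in current nomenclature), coupling factor 6 of the peripheral stalk, was at 153 and 103 CPM in wild type and 59.9 and 64.2 CPM in EED-knockout. Both EED-knockout libraries lay below both wild type libraries, with a log2 fold change of -1.04 (SE 0.24, edgeR adjusted p = 0.734), the gene that DESeq2 called. ATP5O, which joins that stalk to the catalytic head, was at 134 and 107 CPM in wild type and 92.6 and 71.2 CPM in EED-knockout, at -0.56 (SE 0.22). ATP5J2, a small membrane subunit, was at 195 and 167 CPM in wild type and 109 and 118 CPM in EED-knockout, at -0.67 (SE 0.19).

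Subunits of the catalytic head lay on both sides of 0. ATP5A1, its alpha subunit, was at 291 and 336 CPM in wild type and 388 and 350 CPM in EED-knockout, higher in both, with a log2 fold change of 0.24 (SE 0.19, edgeR adjusted p = 0.909). ATP5B, the catalytic beta subunit and the nuclear gene of the module with the most counts, was at 752 and 795 CPM in wild type and 876 and 740 CPM in EED-knockout, with overlapping groups. ATP5D, the delta subunit, was at 0.20 (SE 0.19), ATP5C1, the gamma subunit, at -0.20 (SE 0.18), and ATP5E, the epsilon subunit, at -0.51 (SE 0.22). ATP5F1, the stalk subunit b, was at -0.24 (SE 0.19), but only 18.4% of its counts lay on protein-coding transcripts, and on those alone it was at 0.37. Among the 3 genes for the proton-carrying c ring, which differ in their import signals, ATP5G1 was at 0.20 (SE 0.22), ATP5G2 at -0.20 (SE 0.19) and ATP5G3 at -0.09 (SE 0.21).

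**Figure D3:**
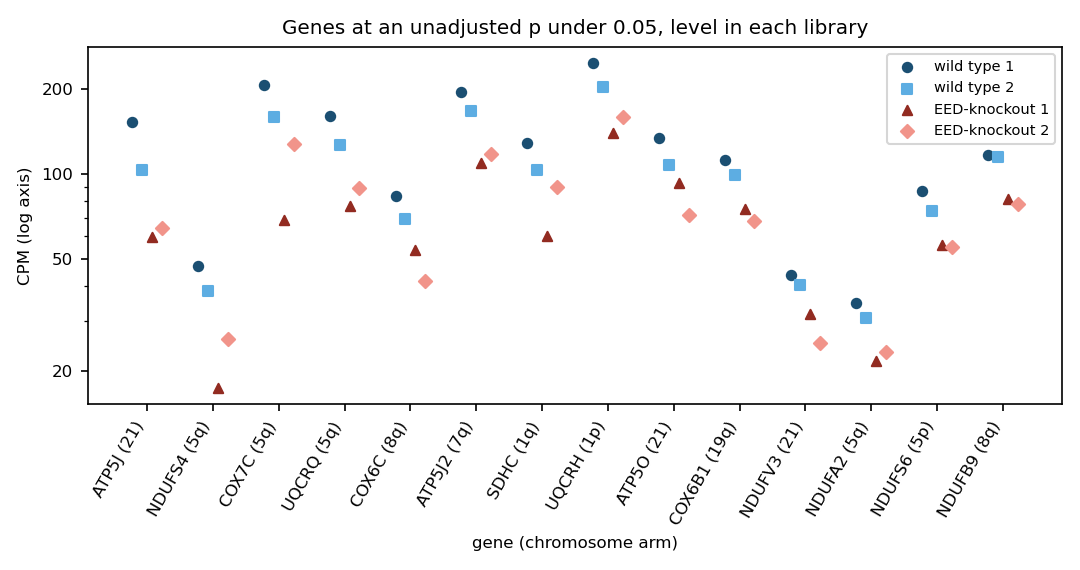
CPM (log axis) of the 14 genes at an unadjusted p under 0.05 in each library, with the chromosome arm in brackets, ordered by fold change. In each of the 14 genes both EED-knockout libraries lie below both wild type libraries, and which of the EED-knockout libraries is lower differs between genes.

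The 14 lower genes were not spread evenly over the genome. On 5q lay NDUFS4, COX7C, UQCRQ and NDUFA2, and on chromosome 21 ATP5J, ATP5O and NDUFV3. These 7 were all the tested members on those arms, which were singled out after their values were seen. Over the other tested genes of 5q and 21 the median log2 fold changes were -0.34 and -0.26, and 16.4% and 17.2% of them were lower at an unadjusted p under 0.05. Outside 5q and 21 the nuclear genes of the module had a median of -0.15, with 7 of 73 at that p. Those 7 were not free of arm shifts, since NDUFB9 and COX6C lie on 8q, NDUFS6 on 5p and SDHC on 1q. All 3 tested members of 8q were below 0, with a median of -0.53, and its 408 other tested genes had a median of -0.20. The other tested genes of 5p and 1q had medians of -0.16 and -0.15.

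The arms also differed between the EED-knockout libraries. Relative to the wild type mean, the other genes of 5q had a median log2 level of -0.38 in EED-knockout 1 and -0.28 in EED-knockout 2, and those of chromosome 21 had -0.16 and -0.51. The members followed the same order within each arm, with medians of -1.09 and -0.59 on 5q and of -0.40 and -0.75 on chromosome 21. After the median of each arm was taken off in each library, 9 of the 14 genes were still at an unadjusted p under 0.05, ATP5J (log2 fold change -0.67), NDUFS4 (-0.63) and UQCRQ (-0.44) among them, and COX7C, NDUFA2, ATP5O, NDUFV3 and NDUFB9 were not. In that fit 13 genes of the module were lower and 1 was higher at that p, and the nuclear median was -0.20. Of all tested genes 2.77% were lower at that p. A copy number of the arms was not measured, and its part in these values was not tested.

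**Figure D4:**
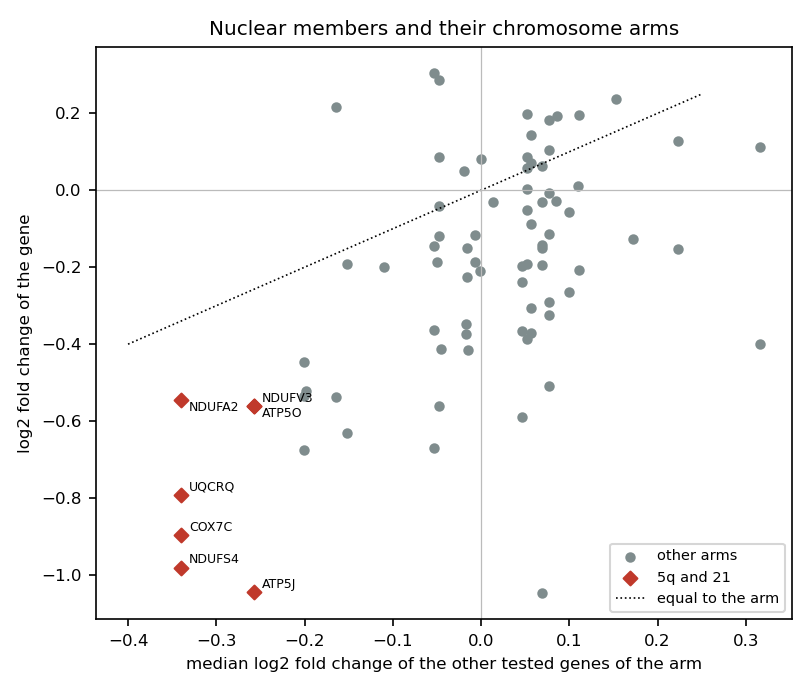
Log2 fold change of each tested nuclear gene (vertical axis) against the median log2 fold change of the other tested genes on its chromosome arm (horizontal axis). The 7 genes of 5q and 21 (red diamonds) lie at arm medians of -0.34 and -0.26 and all lie below the dotted line of equal values; on the other arms genes lie on both sides of 0.

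The promoters of 4 of these genes, the lowest of the well-expressed ones, are shown because they were low together. The letters searched on both strands were GCATGCG (core of the NRF1 site), CCGGAAG (ETS factors, GABPA included) and AAGATGG (YY1), motifs known from promoters of nuclear respiratory genes. Matches are in capitals and can overlap one another. Each window runs from 250 bases before to 50 bases after the gene start, 5′ to 3′ on the gene's strand (RefSeq, GRCh38.p14). They are chr21:25734855-25735154 (minus strand) for ATP5J, chr5:53560389-53560688 (plus) for NDUFS4, chr5:86617691-86617990 (plus) for COX7C and chr5:132866392-132866691 (plus) for UQCRQ. ATP5J has 2 such windows in the table, and the one farther downstream is given:
ATP5J: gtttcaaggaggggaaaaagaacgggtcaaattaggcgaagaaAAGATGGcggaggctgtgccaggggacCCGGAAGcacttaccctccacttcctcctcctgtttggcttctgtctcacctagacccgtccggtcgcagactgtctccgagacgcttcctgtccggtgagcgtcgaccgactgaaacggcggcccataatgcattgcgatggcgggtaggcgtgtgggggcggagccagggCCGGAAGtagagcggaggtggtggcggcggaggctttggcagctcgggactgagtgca
NDUFS4: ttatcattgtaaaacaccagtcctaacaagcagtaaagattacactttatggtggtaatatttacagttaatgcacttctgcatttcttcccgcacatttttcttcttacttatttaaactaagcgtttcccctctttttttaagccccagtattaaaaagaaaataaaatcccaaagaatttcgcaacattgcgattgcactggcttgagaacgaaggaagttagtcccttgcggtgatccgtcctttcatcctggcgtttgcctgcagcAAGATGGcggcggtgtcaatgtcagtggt
COX7C: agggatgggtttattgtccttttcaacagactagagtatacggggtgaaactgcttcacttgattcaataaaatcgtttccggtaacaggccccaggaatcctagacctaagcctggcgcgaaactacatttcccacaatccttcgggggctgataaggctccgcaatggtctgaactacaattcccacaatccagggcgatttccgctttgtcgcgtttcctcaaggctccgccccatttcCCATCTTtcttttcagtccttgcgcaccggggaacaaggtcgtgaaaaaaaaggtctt
UQCRQ: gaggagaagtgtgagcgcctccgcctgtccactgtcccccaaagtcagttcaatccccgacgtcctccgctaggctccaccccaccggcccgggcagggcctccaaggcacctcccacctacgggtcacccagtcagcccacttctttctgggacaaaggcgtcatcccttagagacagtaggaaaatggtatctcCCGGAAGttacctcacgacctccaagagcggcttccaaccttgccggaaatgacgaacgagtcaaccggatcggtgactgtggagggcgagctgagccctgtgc

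The ATP5J window held the ETS letters at 2 places and the YY1 letters at 1, the UQCRQ window the ETS letters, and the NDUFS4 and COX7C windows the YY1 letters. In NDUFS4 the match began at base 272 of the window, after the gene start, and in COX7C it lay on the other strand. Windows were found for 67 of the 87 nuclear symbols. Of the 80 windows of these genes, 25% held the ETS letters, 23.8% the YY1 letters and 18.8% the NRF1 letters, against 10.3%, 5.84% and 3.91% of all 35116 windows. Of the 14 lower genes, 10 had a window, and 8 of the 10 held at least 1 of the 3 motifs, as did 38 of the 67, the 10 included. These are counts of genes, and a gene with several windows had more places for a match. Per window, 50% of the 80 held at least 1 motif, against 18.3% of all windows. A match describes letters and not bound factors.

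GABPA, an ETS factor that binds such sites, starts on the opposite strand at chromosome 21, where its annotated gene body overlaps the start of ATP5J with gene starts 1103 bases apart. It had 1116 and 831 counts in wild type, against 670 and 614 in EED-knockout, lower in both, with a log2 fold change of -0.66 (SE 0.22, edgeR adjusted p = 0.799). The sources used here do not give whether the libraries keep strand, so reads of the overlapping ends of both genes may not be told apart. TATDN1 beside NDUFB9, IK beside NDUFA2 and LINC00649 beside ATP5O also overlap the start of a lower gene, at -0.61, -0.44 and -0.14, the last with only 11 to 26 counts per library. LRRC41, MRPL36 and WDR4 start within 76 bases of UQCRH, NDUFS6 and NDUFV3 and point away from them, with log2 fold changes of 0.24, 0.02 and -0.15. By arm, GABPA, LINC00649 and WDR4 lie on 21, IK on 5q, TATDN1 on 8q, MRPL36 on 5p and LRRC41 on 1p. The tested genes outside the module on these arms had medians of -0.26, -0.34, -0.20, -0.16 and 0.05.

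On the TPM scale the median of all genes stood slightly above 0. In log2(TPM + 1), which understates the fold change of low genes, the median was -0.08 over nuclear genes, 0.12 over mitochondrial genes and 0.07 over all tested genes. Less the median of all genes, the nuclear genes were at -0.16 there and at -0.20 in counts. In TPM both EED-knockout libraries lay below both wild type libraries in 26 nuclear genes and 1 mitochondrial gene (12.9% of all tested genes) and above in 13 nuclear and 2 mitochondrial genes (23.4%). The 14 lower genes were below in TPM as well, all 14 of them. UQCRC1 differed most between its scales among the abundant genes, at 0.05 from counts and 0.43 from TPM.

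**Figure D5:**
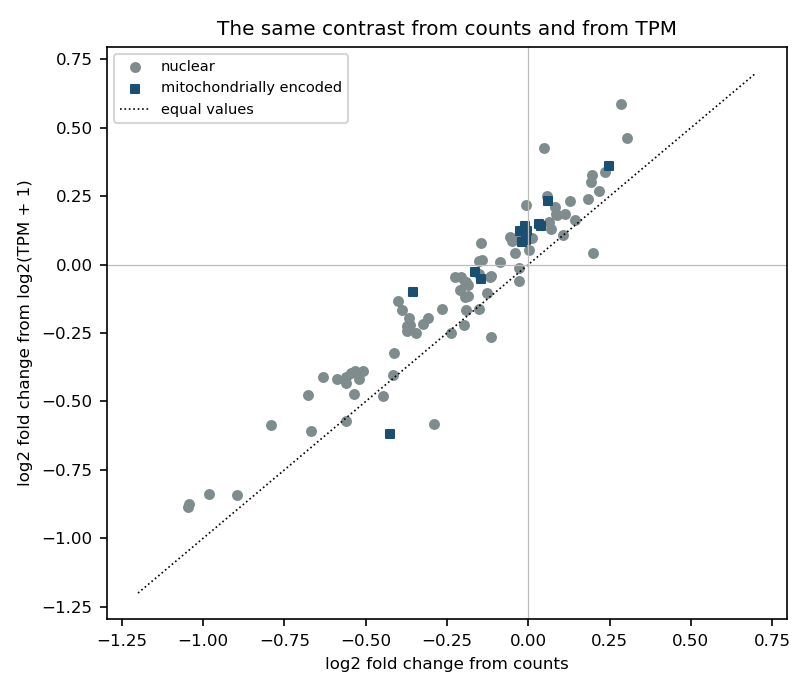
Log2 fold change of each tested gene from counts (horizontal axis) and from log2(TPM + 1) (vertical axis). Most points lie above the dotted line of equal values, and the genes lowest in counts stay lowest in TPM; MT-ATP8 is the mitochondrial gene below the line, at -0.42 and -0.62.

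Fold change rose weakly with transcript length and more with GC content, and fragment length differed between the groups. The Spearman correlation of fold change with length was 0.16 over 80 nuclear genes and 0.10 over 18335 tested genes. With GC content it was 0.30 and 0.24. The shorter and longer nuclear genes, split at their median length, had median log2 fold changes of -0.20 and -0.15. The nuclear genes of the module were short, with a median transcript length of 935 bases against 2574 bases over all tested genes. Of the 14 lower genes 11 were under 1000 bases, but by that median so were most tested nuclear genes. Split at the median length, 10 of the 40 shorter and 4 of the 40 longer tested nuclear genes were lower at an unadjusted p under 0.05. The share of all tested genes under 1000 bases was not counted. Among transcripts of 1000 to 2000 bases, the median gap between length and effective length, which follows the fragment length, was 258 and 252 bases in wild type and 277 and 277 bases in EED-knockout. The 2980 other genes within the central range of the members' lengths (682 to 1495 bases) had a median log2 fold change of -0.06. After a correction for length and GC content, the medians were -0.09 over nuclear genes and 0.15 over mitochondrial genes, 7 of the 14 lower genes kept an unadjusted p under 0.05, and 2.64% of all tested genes were lower at that p. With the arm correction added, 6 of the 14 did: NDUFS4, NDUFS6, SDHC, UQCRH, ATP5J and ATP5J2. The shortest mitochondrial genes, MT-ATP8, MT-ND4L and MT-ND3, had log2 fold changes of -0.42, -0.16 and -0.35 before correction. After the length and GC correction they were at -0.20, 0.06 and -0.11.

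The isoforms that mark muscle, COX7A1 and COX6A2, were nearly absent. COX7A1 reached at most 0.0497 of the TPM of COX7A2, and COX6A2 had at most 3 counts in any library. COX8C, a paralog of COX8A that is not a muscle isoform, also had at most 3 counts in any library. COX7B2, known from testis and some tumors, was at 40.7 and 54.9 TPM in wild type and 61.3 and 47.2 TPM in EED-knockout. These values were 0.734 to 1.52 times the TPM of COX7B. That ratio rests on the division by length, with mean transcript lengths of 542 bases for COX7B2 and 2429 bases for COX7B. Without that division COX7B2 was far lower, at 8.64 to 11.7 CPM across the libraries, against 48.3 to 80.4 CPM for COX7B. The COX7B2 groups overlapped, with a log2 fold change of 0.11 (SE 0.30).

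The 8 genes not tested were COX6A2, COX6B2, COX8C, UQCRHL, ATP5L2, ATP5EP2, the readthrough NDUFC2-KCTD14 and the second SDHD identifier. ATP5EP2, a pseudogene-like copy of ATP5E, was at 0 counts in each of the 4 libraries, where a floor of 3 counts would be 0.158 to 0.166 CPM, for counting error only. ATP5J2-PTCD1, a readthrough that shares sequence with ATP5J2, had 177 and 191 counts in wild type, against 323 and 151 in EED-knockout, so its log2 fold change of 0.30 came from EED-knockout 1. Copies of these genes elsewhere held little in sum: the nuclear copies of mitochondrial genes, 91 of them with counts, had 0.282% of the counts of their parents, and 155 pseudogenes of 43 nuclear members had 0.481%. Single members had more: the copies of SDHA, UQCRFS1 and NDUFV2 held 10.5%, 8.16% and 3.8% of the counts of the member, so the values of these 3 genes are less certain. The largest copy of a mitochondrial gene, MTATP6P1, had 961 and 876 counts in wild type, against 771 and 711 in EED-knockout.

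Related gene lists were measured in the same fit, and edgeR called 0 genes in each. Subunits outside the name pattern had a median log2 fold change of -0.28 over 7 tested genes, with 0 at an unadjusted p under 0.05. Mitochondrial ribosomal proteins had a median of -0.11 over 78 genes, with 3 lower at that p (MRPS6 on 21, MRPS36 on 5q and MRPL13 on 8q) and 0 higher. Over all tested genes 3.05% were lower at that p, so 3 of 78 is close to the background, and in the smaller lists below 1 or 2 genes say little about the list. Complex I assembly factors had a median of -0.11 over 16 genes, with 1 lower, NDUFAF2 at -0.88, which lies on 5q. Assembly factors of complexes II to V had a median of -0.07 over 38 genes, with 2 lower: LYRM7, a chaperone of the Rieske protein on 5q, at -0.95, and COX16 at -0.73.

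Genes for mitochondrial transcription, RNA handling and DNA maintenance had a median of -0.09 over 31 genes, with 2 lower: SLIRP, which stabilizes mitochondrial messengers, at -0.64, and SSBP1, which binds single-stranded mitochondrial DNA, at -0.53. Transcription factors and coactivators of respiratory genes had a median of 0.08 over 14 genes, and GABPA was the 1 lower. Enzymes of the tricarboxylic acid cycle had a median of -0.02 over 18 genes, with SUCLG2 lower at -0.50, and glycolysis enzymes a median of 0.01 over 22 genes, with 0 at an unadjusted p under 0.05. Over the 11 tested of 26 genes of skeletal and heart muscle the median was -0.48, with ACTN2 (-1.75) and MB (-2.89) lower, and DESeq2 called 1 of them, ACTN2 (adjusted p = 0.000612). Wild type 1 stood apart in this list, with a summed level of 112 TPM against 56.4 in wild type 2 and 57.0 and 48.0 in EED-knockout. DES, a muscle filament gene, had 113 counts there against 8, 3 and 1 in the other libraries, and the part of this library in the list was not tested. ACTN2 was also high in wild type 2, with 325 and 350 counts in wild type, against 88 and 120 in EED-knockout, while MB had 75 counts in wild type 1 and 12, 10 and 2 in the others.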

How the data were processed

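RNA-seq of total RNA from Daoy cells was used, with 2 wild type and 2 EED-knockout libraries grouped by their labels. The authors deposited kallisto's estimated counts and TPM values per transcript (kallisto 0.43.1 with hg38, as the submitters' processing notes state). The sources used here do not give the annotation release, the run settings or the strandedness. Estimated counts of 199324 transcripts were summed per gene and rounded. Genotypes were compared over all genes with edgeR 4.0.16 (quasi-likelihood test, TMM factors, filterByExpr with a minimum count of 10 and a minimum total of 15), which left 18349 genes, with Benjamini-Hochberg adjustment (threshold 0.05). All tests were two-sided. Library totals of 17836112 to 19106382 counts make 3 counts equal to 0.158 to 0.166 CPM. Intervals and floors cover counting error only.

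Positions came from GENCODE 29, and promoters from RefSeq (GRCh38.p14). Alternatives were RLE factors, no filter, DESeq2 1.42.0, limma 3.58.1 (voom, and trend on log2(TPM + 1) and log2(TPM + 0.1)), a replicate block, mitochondrial genes out of the library size, protein-coding transcripts only, nuclear copies added, and leaving out each library; corrections for chromosome arm and for length and GC content (loess, span 0.5) and a crossed block were added after seeing the data. The fits were tested on simulated data. Named genes were all mitochondrial genes, the most abundant and most shifted of each complex, those at an unadjusted p under 0.05, isoform pairs, readthroughs and genes without counts. The members and the lists were chosen with earlier results of these data known. Results for 1 gene of the module are not reported here.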

Additional observations from a re-analysis of the deposited data

How the results depend on the processing

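No alternative besides DESeq2 (1 gene, ATP5J) called a gene of the module. With the chromosome arm correction alone, 13 genes of the module were lower and 1 was higher at an unadjusted p under 0.05. The nuclear median in that fit was -0.20. The count of genes lower at an unadjusted p under 0.05 (14) was 7 with the length and GC correction, 8 with the arm, length and GC correction, and 1 (without wild type 1) to 23 (without EED-knockout 2) when single libraries were left out, with 8 without wild type 2. The nuclear median (-0.19) was -0.082 in log2(TPM + 1), -0.083 in log2(TPM + 0.1), -0.085 with the length and GC correction and -0.082 with the arm correction added; without single libraries it was -0.24 to -0.13. The mitochondrial median (-0.01) was 0.12 in both TPM fits, 0.15 with either of those corrections and -0.14 (without wild type 2) to 0.022 (without EED-knockout 1) without single libraries, so its sign was not stable. The genotype difference in share was 0.367 percentage points of TPM for mitochondrial genes, against 0.103 of counts, and -0.205 for nuclear genes, against -0.0701 of counts. The causes were not tested. Over all genes edgeR called 0 and DESeq2 called 26 higher and 42 lower; leaving out EED-knockout 1 gave 38 and 54, EED-knockout 2 gave 49 and 46, wild type 2 gave 1 and 3, and wild type 1 gave 0. Where a library was left out, its lone partner took its spread from the other genotype. Of 953 alternative values for the 53 named genes tested, 70 changed sign.

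With the replicate number as a block, 0 genes of the module were called, 8 were lower at an unadjusted p under 0.05, and the nuclear and mitochondrial medians were -0.19 and -0.01. Deviations of same-numbered libraries had a correlation of -0.14 across 18349 genes, so the numbers do not show a pairing. With the numbers crossed, 0 genes were called and 17 were lower at that p.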
